A study of Mus musculus with 30 samples.

Results

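The 6 libraries described here come from the paw of female mice and compare an injection of prolactin (PRL) with vehicle (Veh), 3 libraries in each group. They are the rRNA-depleted libraries whose labels read female, paw and either PRL or Veh, 6 of 30 libraries in the series, and every gene counted in them was considered. The series also holds dorsal root ganglia, male mice and a group labelled PRL_Sh that was made with an mRNA kit, and none of these is part of the groups compared. The 6 male paw libraries given PRL or Veh were in the same model fit and so took part in the filter on low counts and the estimate of spread. All mice were C57BL/6J, the laboratory strain, aged 10 to 12 weeks, with no allele or transgene named in the labels. The PRL group received 1 µg of prolactin into the paw and the Veh group the carrier, phosphate-buffered saline. Injections were given once or on each of 12 days according to the protocol, and no label says which schedule a library had. Replicates are not stated to be separate animals, so p-values here reflect only the spread among the samples, which may be technical. The series text counts 18 males and 12 females, whereas the labels give 18 female and 12 male libraries.

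Prolactin is a peptide hormone, best known from lactation, that binds a cytokine-type receptor encoded by Prlr. The receptor has no enzyme activity of its own and signals through the kinase JAK2, which phosphorylates the transcription factors STAT5A and STAT5B; the genes Cish and Socs1 to Socs3 are induced by such signals and restrain them. In skin and its nerves prolactin is known to act on keratinocytes and to sensitise pain-sensing neurons, and the comparison asks which transcripts differ between the arms at the site of injection. Paw tissue is a mixture of epidermis, dermal fibroblasts, vessels, muscle, nerve, bone and resident immune cells, so that in these bulk libraries fewer cells of a type and less RNA per cell cannot be told apart.

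The 6 libraries held 10024692 to 11414706 reads in genes, 22.3% to 24.6% of all reads counted, and 41.5% to 44.8% of reads mapped to several places and were not assigned. Xist, the RNA of the inactive X chromosome, was at 2776 to 3787 CPM of gene reads and none of 4 Y-linked genes exceeded 0.194, a pattern of female tissue. The paw label fitted Krt10, a keratin of the outer epidermis, at 17865 to 25410 CPM of gene reads, and Scn10a, a sodium channel of sensory neurons, at 1.73 or less. PRL replicate 3 stood apart. The skeletal muscle list took 0.0838% of its gene reads against 0.476% to 1.72% in the other 5, and the immediate-early list, genes switched on within minutes of a stimulus or of handling, 0.629% against 0.234% to 0.379%. On the first principal component, which held 44.6% of the variance, it lay at -61.1 while the others ran from -19.5 to 40.6. PRL replicate 2 held cartilage RNA, with Acan, the cartilage proteoglycan aggrecan, at 2.21, 71.2 and 2.06 CPM in PRL replicates 1 to 3 and 5.64, 1.18 and 3.02 with Veh.

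Of 14721 genes tested by edgeR's quasi-likelihood test, 963 were higher with PRL (6.54%) and 148 were lower (1.01%) at an adjusted p under 0.05, together 7.55% of the genes tested. Rises were also the larger changes, with a median log2 change of 1.10 among the genes that rose and -0.58 among those that fell. A change of more than 2-fold was found for 535 rises and 23 falls, and one of more than 4-fold for 126 and 4. The median over all tested genes was -0.01. In 1108 of the 1111 called genes the 3 PRL libraries did not overlap the 3 Veh libraries, as was the case for 24.5% of all tested genes. The count of calls in each gene list below stands beside the shares of 6.54% higher and 1.01% lower over all tested genes. In any list, a gene with very few Veh reads can have passed the filter on low counts through PRL libraries alone. Levels are given throughout as CPM, the field's unit for counts divided by library size, after scaling by the trimmed mean of M values (TMM), in the order of replicates 1, 2 and 3, unless CPM of gene reads is named.

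The number of calls moved with single libraries. Without PRL replicate 3 there were 1127 rises and 378 falls, with the muscle list as a covariate 1130 and 500, and in a fit to these 6 libraries alone 555 and 42. Rises numbered 595 and falls 57 when PRL replicate 1 was left out, 572 and 35 without Veh replicate 2, and 514 and 65 without Veh replicate 3. Falls numbered 95 without PRL replicate 2 and 83 without Veh replicate 1.

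**Figure D1:**
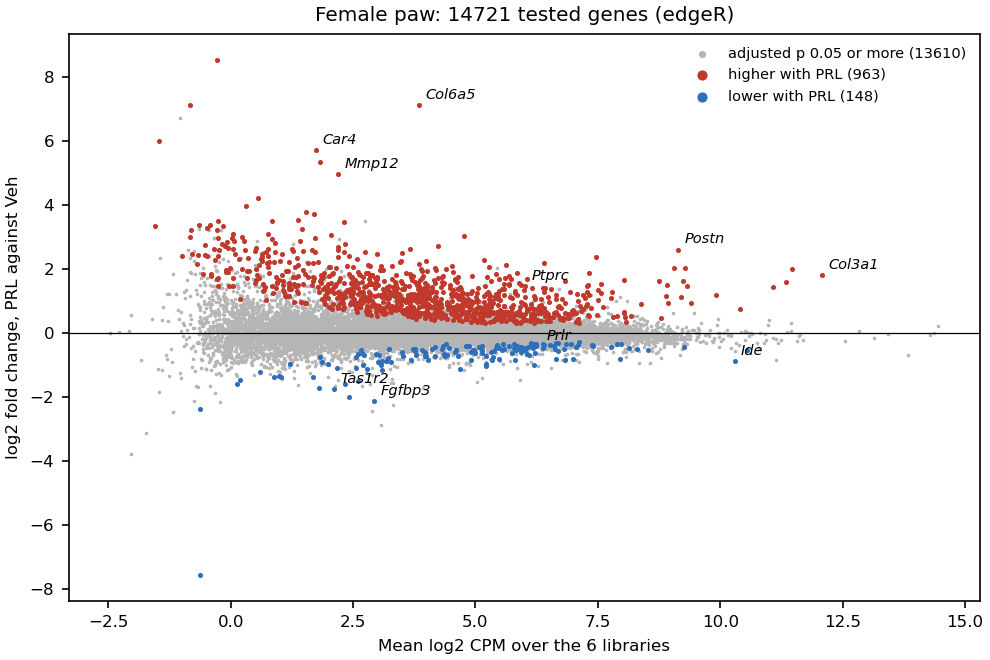
Each point is 1 of 14721 tested genes, placed by its mean log2 CPM over the 6 libraries (x axis) and its log2 change with PRL against Veh (y axis), red where higher and blue where lower at an adjusted p under 0.05. The 963 red points lie further from 0 than the 148 blue ones, with Col6a5 at 7.11 and the abundant Col3a1 at 1.80, and Prlr lies among the grey points at -0.41.

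Among genes of the prolactin pathway, the receptor came first. Prlr was at 49.7, 64.2 and 98.7 CPM with PRL and 92.3, 99.99 and 89.6 CPM with Veh. PRL replicates 1 and 2 were below every Veh library, and PRL replicate 3 lay within the Veh range. The difference did not pass the test (log2 change -0.41 ± 0.19 SE, adjusted p = 0.241, 95% interval -0.81 to -0.00). It passed in 2 of 16 alternative settings, at -0.72 without PRL replicate 3 (edgeR adjusted p = 0.00234) and -0.60 with muscle as a covariate (adjusted p = 0.0214). Without PRL replicate 1 it was -0.21 (edgeR adjusted p = 0.589). The Prl gene itself had 0 reads in all 6 libraries, which says nothing of the injected protein.

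Of 19 tested genes on the prolactin and JAK-STAT5 list 3 rose and 0 fell, beside 6.54% and 1.01% of all tested genes, with a median log2 change of 0.04. Without PRL replicate 3 there were 2 rises and 1 fall. Igf1, insulin-like growth factor 1, a target of STAT5 in liver, was at 239, 262 and 229 CPM with PRL and 134, 101 and 85.4 CPM with Veh. Every PRL library exceeded every Veh library by a clear margin (log2 change 1.19 ± 0.14 SE, adjusted p = 0.000681). Grb2, an adaptor between receptors and Ras, was at 51.2, 53.9 and 51.6 against 38.5, 39.2 and 43.5 CPM, a small difference of 0.37 ± 0.10 SE (adjusted p = 0.045) whose call was lost in 11 of 16 alternative settings.

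The kinase and the STAT5 genes gave no call. Jak2 was at 100.4, 87.1 and 108 CPM with PRL and 74.2, 77.8 and 81.6 CPM with Veh, without overlap, and just missed the threshold (log2 change 0.34 ± 0.094 SE, adjusted p = 0.051). Stat5a was at 39.4, 35.7 and 54.2 against 51.2, 43.7 and 34.5 CPM (95% interval of the log2 difference -0.39 to 0.38) and Stat5b at 71.3, 90.7 and 64.7 against 81.4, 65.1 and 84.7 CPM (-0.40 to 0.34). Changes inside these intervals were not detectable here. Exons of Stat5a overlap those of Stat3 on the opposite strand, and since the strand setting of the counting is not given, reads there cannot be assigned to either with certainty.

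Feedback genes differed in sign, and none passed. Cish was at 23.2, 21.0 and 41.2 with PRL against 37.6, 33.7 and 28.9 CPM with Veh (log2 change -0.23 ± 0.24 SE, adjusted p = 0.647), with PRL replicate 3 the highest of the 6. Socs3 was at 45.4, 34.3 and 50.0 against 60.3, 56.5 and 79.5 CPM, each PRL library below each Veh library (log2 change -0.60 ± 0.23 SE, adjusted p = 0.169). Socs1 was at 5.68, 5.19 and 7.70 against 4.06, 3.44 and 3.75 CPM, each PRL library above each Veh library (log2 change 0.72 ± 0.27 SE, adjusted p = 0.149). Socs2 ran from 13.1 to 23.0 CPM with PRL and from 10.1 to 18.3 CPM with Veh (0.45 ± 0.24 SE). The remaining members, Stat3, Bcl6, Ccnd1, Ghr, Pim1, Elf5, Shc1 and Ptpn11, differed by -0.39 (Ghr, the growth hormone receptor) to 0.22 (Ccnd1, cyclin D1) on the log2 scale, all with an adjusted p of 0.117 or more.

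Genes of white blood cells were higher in the paw with PRL than with Veh. All 15 genes of a list that marks leukocytes in general rose, with a median log2 change of 1.42, beside a share of 6.54% of all tested genes that rose. Ptprc, the surface phosphatase CD45 carried by nearly all white blood cells, was at 107, 106 and 109 CPM with PRL and 40.1, 39.5 and 36.6 CPM with Veh. The PRL libraries lay within 3 CPM of each other and no Veh library came near them (log2 change 1.47 ± 0.10 SE, adjusted p = 7.22e-05). Dock2, which activates Rac in moving leukocytes, was at 95.6, 75.1 and 72.3 CPM with PRL and 27.8, 28.7 and 27.3 CPM with Veh (log2 change 1.54 ± 0.12 SE, adjusted p = 0.000152). Hcls1, Ikzf1 and Itgb2, a cortactin-like adaptor, the lymphoid transcription factor Ikaros and the beta-2 integrin chain, rose by 1.41, 1.35 and 1.71. Between 13 and 15 of the 15 rose in each of the 16 alternative settings. Summed, the list took 0.0752% to 0.106% of gene reads with PRL and 0.0290% to 0.0358% with Veh.

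Macrophage genes rose in 15 of 18, with a median of 1.45. Ctss, the lysosomal protease cathepsin S, was at 522, 395 and 295 CPM with PRL and 82.3, 83.0 and 68.8 CPM with Veh. Aif1, the calcium-binding protein IBA1 of macrophages, was at 7.55, 8.71 and 9.20 CPM with PRL and 1.23, 1.09 and 0.914 CPM with Veh. In both genes the lowest PRL library was several-fold above the highest Veh library (log2 change 2.37 ± 0.22 SE, adjusted p = 0.00022 for Ctss and log2 change 2.96 ± 0.28 SE, adjusted p = 0.00022 for Aif1). Emr1 (F4/80), Itgam (CD11b) and Tyrobp, an adaptor of myeloid receptors, rose by 2.07, 1.41 and 1.49. Cd163 (-0.66 ± 0.22 SE) and Cx3cr1 (0.84 ± 0.40 SE) were among the members that did not pass. Cd163, a haemoglobin scavenger receptor of resident macrophages, was at 39.9, 41.8 and 54.4 CPM with PRL and 89.5, 70.3 and 55.5 CPM with Veh (adjusted p = 0.102), with PRL replicate 3 close to Veh replicate 3.

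Genes tied to alternative activation, the state induced by interleukin-4 and interleukin-13, rose in 7 of 17 (median 1.09), beside 6.54% of all tested genes. Ccl8, a monocyte chemokine, was at 38.2, 19.3 and 36.3 CPM with PRL and 5.11, 5.37 and 4.84 CPM with Veh. Pdcd1lg2, which encodes the checkpoint ligand PD-L2, was at 4.67, 4.01 and 6.57 CPM with PRL and 0.0882, 0.252 and 0.457 CPM with Veh. PRL libraries were above all Veh libraries for both (log2 change 2.61 ± 0.30 SE, adjusted p = 0.00054 and log2 change 4.21 ± 0.55 SE, adjusted p = 0.000907). Pdcd1lg2 was so low with Veh that it can have passed the filter on low counts through PRL libraries alone, so the count of 7 is a description. Mrc1, the mannose receptor CD206, rose by 1.10, the lectin Mgl2 by 1.74 and Retnla by 3.04. Arg1, arginase 1, was at 0.81 ± 0.27 SE (adjusted p = 0.0979) and did not pass. Without Veh replicate 2 or Veh replicate 3 the count of 7 became 3, and Retnla and Mgl2 were among the calls lost.

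The list of inflammatory activation had 2 rises of 14, beside 6.54% of all tested genes, and a median of 0.88. Cybb, the catalytic subunit of the phagocyte NADPH oxidase, was at 131, 113 and 68.1 CPM with PRL and 26.4, 24.8 and 20.3 CPM with Veh (log2 change 2.12 ± 0.21 SE, adjusted p = 0.000259). Marco, a scavenger receptor, was at 3.82, 2.64 and 1.31 CPM with PRL and 0.529, 0.923 and 0.457 CPM with Veh (log2 change 2.0 ± 0.49 SE, adjusted p = 0.0295), a call that was kept without PRL replicate 3 and lost without any other single library. The classical inflammatory transcripts Il1b (0.13 ± 0.49 SE), Tnf (1.10 ± 0.40 SE), Nos2 (1.78 ± 0.66 SE) and Il6 (-1.22 ± 0.62 SE) did not pass. Tnf, Nos2 and Il6 had no library above 6.87 CPM, where the counts give little precision.

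Dendritic cell genes rose in 5 of 13 (median 1.22), of which Batf3, Clec9a and Xcr1 had 16, 12 and 4 reads in all Veh libraries together. Genes this low can enter the test through their PRL libraries alone, so the count is a description. Itgax, the integrin CD11c, was at 31.3, 27.8 and 28.3 CPM with PRL and 6.97, 7.56 and 7.13 CPM with Veh, with 4-fold higher levels in PRL and little spread in either group (log2 change 2.01 ± 0.18 SE, adjusted p = 0.000213). Batf3, a transcription factor of cross-presenting dendritic cells, was at 2.21, 3.72 and 3.19 CPM with PRL and 0.617, 0.420 and 0.366 CPM with Veh (log2 change 2.67 ± 0.33 SE, adjusted p = 0.000775). Irf8 (1.84), Clec9a (2.47) and Xcr1 (3.22), all known from that cell type, also rose. Clec9a and Xcr1 were at 2.12 CPM or less in every library, and the call of Xcr1 was lost without any single library except PRL replicate 2. Cd207 (langerin), the marker of epidermal Langerhans cells, did not pass (0.19 ± 0.29 SE, adjusted p = 0.77).

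Antigen presentation was the other list in which every member rose, 15 of 15 with a median of 1.47. H2-K1, a class I heavy chain, was at 269, 213 and 245 CPM with PRL and 111, 103 and 88.0 CPM with Veh. H2-Eb1, a class II beta chain, was at 222, 158 and 216 CPM with PRL and 64.7, 72.1 and 57.9 CPM with Veh. In both the lowest PRL library was about 2-fold above the highest Veh library (log2 change 1.27 ± 0.12 SE, adjusted p = 0.000214 and log2 change 1.61 ± 0.16 SE, adjusted p = 0.000291). H2-Ab1, Cd74 (the invariant chain) and B2m (beta-2 microglobulin) rose by 1.5, 1.62 and 1.47. Ciita, the master regulator of class II genes, was at 27.9, 23.7 and 33.8 CPM with PRL and 7.67, 10.7 and 6.40 CPM with Veh, highest in PRL replicate 3. The count stayed at 14 or 15 in every alternative setting. H2-K1 and H2-D1 are near-identical in parts, and how the counting split shared reads is not given.

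T and NK cell genes were low in level but rose in 8 of the 14 members that passed the filter on low counts, of 19 in the files. At such levels a gene can pass that filter through its PRL libraries alone, so the count is a description. Cd4 was at 11.03, 5.78 and 5.82 CPM with PRL and 1.23, 1.26 and 1.37 CPM with Veh. Foxp3, the transcription factor of regulatory T cells, was at 1.95, 1.37 and 1.88 CPM with PRL and 0.176, 0.168 and 0.183 CPM with Veh. Both were several-fold higher in each PRL library than in any Veh library (log2 change 2.54 ± 0.29 SE, adjusted p = 0.00054 and log2 change 3.23 ± 0.45 SE, adjusted p = 0.00135). Cd2 and Ctla4, T cell surface receptors, rose by 2.54 and 2.46, and Gzmb, a granzyme of cytotoxic cells, by 3.49. Gzma had 39 reads with PRL and 0 with Veh, at least 13.6-fold higher against a floor of 3 counts over the Veh group, yet did not pass (adjusted p = 0.0547). The 5 members that did not pass the filter, Cd3d, Cd8a, Cd8b1, Ncr1 and Klrb1c, had 10 to 33 reads each over the PRL libraries and 2 to 5 over the Veh libraries. Exons of Foxp3 overlap those of Ccdc22 on the other strand; Ccdc22 itself was at 15.2 and 14.2 CPM.

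Other blood lineages gave few calls. B cell genes gave 0 calls among 4 tested, and 1 rise without Veh replicate 1. Ms4a1, Cd79a, Cd79b, Pax5, Igj and 2010001M09Rik did not pass the filter on low counts. They had 3 to 28 reads each over the PRL libraries and 0 to 6 over the Veh libraries, each gene more with PRL. Cd22, a B cell lectin outside the lists, had 51 reads with PRL and 0 with Veh, at least 17.8-fold higher against the same floor (edgeR adjusted p = 0.00119). In the neutrophil list 1 of 10 rose and 1 fell, beside 6.54% and 1.01% of all tested genes. The median was 1.27, and 8 of the 10 values were positive. Mpo, Elane, Camp and Mmp8 did not pass the filter on low counts. They had 1 to 40 reads each over the PRL libraries and 0 to 15 over the Veh libraries, each gene more with PRL. Csf3r, the receptor of the granulocyte colony-stimulating factor, was at 31.5, 10.7 and 31.5 CPM with PRL and 7.23, 8.65 and 6.12 CPM with Veh (log2 change 1.74 ± 0.33 SE, adjusted p = 0.00668). Il1r2, a decoy receptor of interleukin-1, was at 20.5, 19.6 and 26.6 CPM with PRL and 37.9, 45.8 and 36.9 CPM with Veh and fell (log2 change -0.86 ± 0.13 SE, adjusted p = 0.00235). The granule genes S100a8 and S100a9 differed by 0.66 ± 0.76 SE and 0.97 ± 0.82 SE and did not pass.

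Of the 11 mast cell, basophil and eosinophil genes that passed the filter on low counts, of 16 in the files, 2 rose. Both, Ccr3 and Siglec5, were low, with 21 and 10 reads over the Veh libraries, and can have passed that filter through PRL libraries alone, so this count too is a description. Ccr3, the eotaxin receptor of eosinophils, was at 5.34, 4.21 and 1.88 CPM with PRL and 0.529, 0.420 and 0.914 CPM with Veh (log2 change 2.61 ± 0.59 SE, adjusted p = 0.0197). Siglec5, the symbol the files give for the eosinophil lectin Siglec-F, was at 2.21, 1.96 and 2.44 CPM with PRL and 0.176, 0.336 and 0.366 CPM with Veh (log2 change 2.87 ± 0.71 SE, adjusted p = 0.0304). The call of Ccr3 was lost without PRL replicate 1, Veh replicate 1 or Veh replicate 2, and that of Siglec5 whichever of the 6 libraries was left out. Ear11, an eosinophil-associated ribonuclease outside the lists, had 135 reads with PRL and 0 with Veh (at least 47.1-fold higher against the floor, adjusted p = 0.0327). The mast cell genes Cma1, Tpsb2, Cpa3, Kit and Mcpt4 lay between -0.14 and 0.59 on the log2 scale and did not pass.

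Chemokines, the attractants of white blood cells, rose in 9 of 28 tested genes (median 0.97). Ccl11, eotaxin, was at 40.0, 56.1 and 55.6 CPM with PRL and 22.5, 18.2 and 22.6 CPM with Veh, every PRL library above every Veh library (log2 change 1.26 ± 0.14 SE, adjusted p = 0.00054). Ccl8, given above, rose by 2.61, Cxcl16 by 1.22, Ccl9 by 1.10 and Ccl6 by 1.19. Cxcl16 shares exon sequence on the opposite strand with Zmynd15, which itself rose by 1.53. Cxcl1 (-0.27 ± 0.61 SE), Cxcl2 (0.39 ± 0.46 SE) and Ccl2 (-0.38 ± 0.29 SE), chemokines of neutrophils and monocytes, did not pass.

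Of 16 chemokine receptors 7 rose (median 0.96), beside 6.54% of all tested genes. Among the 7 were Ccr3 and Xcr1, given above, which can have passed the filter on low counts through PRL libraries alone, so the count is a description. Cxcr4, the receptor of Cxcl12, was at 22.9, 14.98 and 15.1 CPM with PRL and 5.91, 6.97 and 4.84 CPM with Veh (log2 change 1.58 ± 0.23 SE, adjusted p = 0.0016). Ccr2, the receptor of inflammatory monocytes, Ccr1 and Ccr3 rose by 1.34, 0.82 and 2.61. The count of 7 was 3 when PRL replicate 1 or Veh replicate 1 was left out and 4 without Veh replicate 2 or Veh replicate 3.

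In the list of cytokines and growth factors of pain and inflammation 3 of 26 rose, beside 6.54% of all tested genes, with a median of 0.11. Osm, oncostatin M, was at 5.60, 4.41 and 10.2 CPM with PRL and 2.64, 2.52 and 1.74 CPM with Veh (log2 change 1.54 ± 0.30 SE, adjusted p = 0.00872). Tgfb1, transforming growth factor beta 1, was at 64.3, 43.2 and 33.4 CPM with PRL and 26.5, 21.0 and 22.1 CPM with Veh (log2 change 1.02 ± 0.24 SE, adjusted p = 0.0215). Il10, the anti-inflammatory interleukin-10, rose by 2.31 ± 0.55 SE (adjusted p = 0.0257) from levels under 1 CPM with Veh. None of the 3 was called in the fit to the 6 libraries alone, and 1 of 3 remained without Veh replicate 2 or Veh replicate 3. Bdnf (-0.10 ± 0.33 SE), Ptgs2 (cyclooxygenase 2, -0.38 ± 0.40 SE) and Il33 (-0.14 ± 0.21 SE) did not pass.

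Interferon-response genes rose in 21 of 28, and all 28 values were positive, with a median of 1.08. Dhx58, a regulator of viral RNA sensing, was at 13.2, 9.20 and 6.95 CPM with PRL and 3.53, 3.44 and 3.11 CPM with Veh. Irf7, the transcription factor that amplifies the interferon response, was at 38.3, 33.0 and 17.8 CPM with PRL and 8.82, 7.05 and 7.22 CPM with Veh. In each the lowest PRL library was replicate 3, and it still exceeded the highest Veh library by about 2-fold (log2 change 1.54 ± 0.22 SE, adjusted p = 0.00152 and log2 change 1.95 ± 0.28 SE, adjusted p = 0.00154). Mx1, an antiviral GTPase, and Bst2, which tethers virus particles, rose by 2.07 and 1.29.

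The number of interferon calls moved with single libraries, as did the number of calls over all genes. PRL replicate 1 was the highest of the 3 PRL libraries and replicate 3 the lowest in this list (mean log2 CPM 1.08, 0.70 and 0.05 above the mean of the 6 libraries). The count of 21 was 26 without PRL replicate 3, 9 without PRL replicate 1, 13 without PRL replicate 2, and 14, 10 and 10 without Veh replicates 1, 2 and 3. With muscle as a covariate 27 of the 28 rose, in the fit to the 6 libraries alone 9, and with the replicate number as a block 11. PRL replicate 3 was also the library with the most immediate-early RNA, whose part in the interferon levels was not tested.

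Interferon-induced genes are known to carry the interferon-stimulated response element (ISRE) in their promoters. The motif, GAAA followed by any 2 bases and GAAA again, was searched on both strands of the 250 bases before each gene start in RefSeq's promoter table (build GRCm38.p6), where 18 of the 28 genes have an entry. It was found in 10 of the 18 (55.6%), against 3.15% of 11476 tested genes with an entry. Among genes that rose it was present in 8.22% of 730 and among those that fell in 2.63% of 114. The windows of 4 called genes are shown to make the match visible, 5′ to 3′ on the gene's strand with the matched bases, overlaps merged, in capitals. A match is a description of the letters, not a binding site.
Irgm1 (chr11:48871421-48871460, minus strand): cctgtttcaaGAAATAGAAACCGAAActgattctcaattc
Isg15 (chr4:156200847-156200906, minus strand): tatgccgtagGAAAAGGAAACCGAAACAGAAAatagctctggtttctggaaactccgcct
Gbp3 (chr3:142559989-142560043, plus strand): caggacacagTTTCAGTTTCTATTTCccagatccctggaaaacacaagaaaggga
Ifit3 (chr19:34583363-34583422, plus strand): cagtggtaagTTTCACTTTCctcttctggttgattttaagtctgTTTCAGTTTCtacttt

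The 4 genes shown rose by 0.90 ± 0.20 SE, 1.65 ± 0.44 SE, 1.10 ± 0.20 SE and 1.66 ± 0.37 SE on the log2 scale. Ifit3, for example, was at 14.1, 11.2 and 6.10 CPM with PRL and 2.20, 3.44 and 4.30 CPM with Veh (adjusted p = 0.0172). Its PRL libraries exceeded all Veh libraries, with replicate 3 closest to them. In the prolactin list, the STAT motif TTCNNNGAA was found in 3 of 16 promoters (18.8%; Prlr, Socs3 and Bcl6), none of them of a called gene, against 7.1% of tested genes with an entry. It was present in 8.77% of the promoters of genes that rose and 8.77% of those that fell.
Prlr (chr15:10223786-10223845, plus strand, STAT motif in capitals): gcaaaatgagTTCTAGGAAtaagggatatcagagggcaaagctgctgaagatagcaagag

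Complement genes rose in 9 of 15 (median 1.03). C3, the central component, was at 1651, 931 and 1289 CPM with PRL and 417, 307 and 219.8 CPM with Veh. The lowest PRL library was more than 2-fold above the highest Veh library (log2 change 2.04 ± 0.28 SE, adjusted p = 0.00114). C1qa, a chain of C1q made by macrophages, was at 120.0, 94.5 and 74.1 CPM with PRL and 38.5, 28.5 and 23.5 CPM with Veh (log2 change 1.67 ± 0.23 SE, adjusted p = 0.00126). C1qb, the C3a receptor C3ar1 and factor B (Cfb) rose by 1.88, 1.39 and 1.15. C4b (0.05 ± 0.26 SE) did not pass.

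Collagen genes rose together. Fibrillar and microfibrillar collagens rose in 13 of 18, with a median of 1.49 and no negative value, and took 2.10% to 3.02% of gene reads with PRL against 0.699% to 0.928% with Veh. Col6a5, a chain of the microfibrillar collagen VI, was at 103, 101 and 308 CPM with PRL and 1.41, 1.09 and 1.19 CPM with Veh. PRL replicate 3 was about 3-fold above the other PRL libraries, and the Veh libraries were close to 1 CPM (log2 change 7.11 ± 0.68 SE, adjusted p = 0.00022). Col6a2, another collagen VI chain, was at 1111, 1002 and 1138 CPM with PRL and 319.6, 242 and 226 CPM with Veh and showed far less spread (log2 change 2.04 ± 0.19 SE, adjusted p = 0.000214). Col5a2, Col6a1 and Col6a6 rose by 1.51, 1.62 and 5.34.

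The main dermal collagens were the most abundant called genes. Col3a1, the chain of collagen III, was at 9389, 8174 and 6922 CPM with PRL and 2635, 2293 and 2102 CPM with Veh. Col1a1, of collagen I, was at 7141, 5915 and 4178 CPM with PRL and 1769.9, 1295 and 1231 CPM with Veh. Both were higher in every PRL library than in any Veh library by a factor above 2 (log2 change 1.80 ± 0.23 SE, adjusted p = 0.000775 and log2 change 2.0 ± 0.26 SE, adjusted p = 0.000923). Col1a2, its partner chain, rose by 1.59 ± 0.21 SE to 4539 ± 799.5 CPM (mean ± SD, n = 3) from 1508 ± 267 CPM. Col12a1 (0.30 ± 0.19 SE), Col16a1 (0.12 ± 0.11 SE), Col8a1, Col11a1 and Col18a1 did not pass. Between 12 and 16 members rose in each alternative setting.

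Matricellular, elastic and crosslinking genes rose in 10 of 33 (median 0.63). Postn, periostin, a matrix protein of remodelling tissue, was at 1326, 1066 and 1829.5 CPM with PRL and 247, 198 and 247 CPM with Veh. The PRL libraries exceeded the Veh libraries at least 4-fold (log2 change 2.61 ± 0.27 SE, adjusted p = 0.00032). Fbn2, fibrillin 2, was at 7.04, 5.97 and 5.16 CPM with PRL and 2.998, 1.93 and 1.74 CPM with Veh (log2 change 1.44 ± 0.23 SE, adjusted p = 0.0024). Loxl2, a crosslinking enzyme, Sparc, a collagen-binding glycoprotein, and Fn1, fibronectin, rose by 1.26, 1.20 and 1.43, and Fbn1, fibrillin 1, by 0.74. Elastin (Eln, 0.02 ± 0.31 SE) and decorin (Dcn, -0.36 ± 0.16 SE) did not pass. The count of 10 was 16 without PRL replicate 3 and 6 without Veh replicate 2 or Veh replicate 3.

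Basement membrane genes split, with 3 rises (Nid1 0.79, Nid2 0.64 and Lama4 0.59) and 1 fall of 17, beside 6.54% and 1.01% of all tested genes. Lama3, a laminin chain of the epidermal basement membrane, was at 145, 133 and 166 CPM with PRL and 180.1, 215 and 193 CPM with Veh and fell (log2 change -0.41 ± 0.11 SE, adjusted p = 0.0419). Nid1, nidogen 1, was at 272, 244 and 144 CPM with PRL and 153, 120.1 and 110.0 CPM with Veh, where PRL replicate 3 lay inside the Veh range (log2 change 0.79 ± 0.21 SE, adjusted p = 0.0444). Each of the 4 calls was lost in 7 or more of the 16 alternative settings, and without PRL replicate 3 there were 8 rises and 2 falls.

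Matrix proteases and their inhibitors rose in 10 of 29 (median 0.62). Mmp12, macrophage elastase, was at 36.7, 22.9 and 13.0 CPM with PRL and 0.882, 0.588 and 0.823 CPM with Veh. PRL replicate 1 was the highest, and no Veh library reached 1 CPM (log2 change 4.97 ± 0.60 SE, adjusted p = 0.000613). Ctss, described above, and Adam12, a metalloprotease of mesenchymal cells, rose by 2.37 and 2.14, Adam8 and Adamts12 by 1.10 and 1.04. The collagenase-group genes Mmp2 (0.53 ± 0.21 SE), Mmp13 (0.62 ± 0.77 SE) and Mmp14 (0.71 ± 0.22 SE) and the inhibitors Timp1 (0.22 ± 0.46 SE) to Timp3 (0.05 ± 0.16 SE) did not pass. Without Veh replicate 2 the count was 6, and without PRL replicate 3 there was also 1 fall.

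Among fibroblast and myofibroblast identity genes 2 of 17 rose, beside 6.54% of all tested genes, with a median of 0.17. Fap, the fibroblast activation protein, was at 18.7, 28.5 and 19.6 CPM with PRL and 10.6, 7.81 and 9.96 CPM with Veh (log2 change 1.23 ± 0.20 SE, adjusted p = 0.0033). Cd34, a surface protein of dermal fibroblasts and vessels, was at 308, 351 and 314 CPM with PRL and 256, 212 and 169 CPM with Veh (log2 change 0.61 ± 0.17 SE, adjusted p = 0.0453), a call that was kept without Veh replicate 1 and lost without any other single library. Pdgfra (0.19 ± 0.12 SE), Vim (vimentin, 0.26 ± 0.16 SE) and the myofibroblast gene Acta2 (-0.17 ± 0.20 SE) did not pass. Of 24 endothelial and pericyte genes 3 rose and 1 fell (median 0.33), beside 6.54% and 1.01% of all tested genes. Vcam1, a leukocyte adhesion molecule of activated endothelium, was at 27.3, 16.4 and 19.5 CPM with PRL and 7.05, 10.7 and 10.5 CPM with Veh (log2 change 1.16 ± 0.20 SE, adjusted p = 0.00362), and Vwf, von Willebrand factor, at 114, 107 and 110.3 CPM with PRL and 70.1, 68.1 and 55.6 CPM with Veh (log2 change 0.77 ± 0.15 SE, adjusted p = 0.00817). Plvap rose by 0.64 and Kcnj8, a potassium channel of pericytes, fell by 0.76. Both of these calls were lost without PRL replicate 1, PRL replicate 3 or Veh replicate 2, that of Plvap also without Veh replicate 3 and that of Kcnj8 without Veh replicate 1. Pecam1 (CD31) was at 0.22 ± 0.10 SE.

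Keratinocyte genes made up a large part of the RNA and moved little. The suprabasal and cornified list took 5.84% to 8.36% of gene reads with PRL and 6.18% to 8.31% with Veh, and 0 of 22 passed (median -0.01). Without PRL replicate 3 there was 1 fall and without PRL replicate 2 there was 1 rise. Its smallest p belonged to Rptn, repetin, at 683, 222 and 265 CPM with PRL and 205, 178 and 151 CPM with Veh, with PRL replicate 1 alone far above the rest (log2 change 1.13 ± 0.38 SE, adjusted p = 0.103). Among 10 basal keratinocyte genes 2 fell, and all 10 values were below 0 (median -0.31). Itgb4, the hemidesmosome integrin, was at 281, 229.7 and 282 CPM with PRL and 373, 395 and 349.7 CPM with Veh (log2 change -0.50 ± 0.11 SE, adjusted p = 0.0203). Its partner chain Itga6 was at 208, 217 and 247 CPM with PRL and 273, 296 and 276 CPM with Veh (log2 change -0.33 ± 0.089 SE, adjusted p = 0.0444). Krt5 and Krt14, keratins of the basal layer, were at -0.33 ± 0.13 SE and -0.00 ± 0.16 SE. Both calls were lost without PRL replicate 2, Veh replicate 1 or Veh replicate 2, that of Itga6 also without PRL replicate 1 or Veh replicate 3, and without PRL replicate 3 there were 4 falls.

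Stress and wound genes of keratinocytes rose in 1 of 23, a share below the 6.54% of all tested genes. The gene was Sprr2h, a cornified envelope precursor, at 40.8, 33.5 and 42.1 CPM with PRL and 18.3, 20.7 and 16.1 CPM with Veh (log2 change 1.08 ± 0.23 SE, adjusted p = 0.0135). Its call was lost without PRL replicate 1 or Veh replicate 3, and without PRL replicate 3 there were 4 rises and 1 fall. Krt16, a wound keratin, was at 559, 432 and 25.2 CPM with PRL and 131, 183 and 136 CPM with Veh and Krt6b at 681, 417 and 1.69 CPM with PRL and 112, 192 and 117 CPM with Veh. In both, PRL replicates 1 and 2 were above all Veh libraries and PRL replicate 3 below them all, and neither passed. Hair, sweat and sebaceous gland lists gave 0 calls among 20 and 18 tested genes, and the hair list was low in PRL replicate 3 and Veh replicate 2.

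Skeletal muscle genes gave 0 calls of 20 with a median of -0.54. Actn3, alpha-actinin of fast muscle fibres, was at 63.5, 237 and 7.51 CPM with PRL and 219.5, 72.4 and 366 CPM with Veh, a range that overlaps widely (log2 change -1.10 ± 0.92 SE, adjusted p = 0.558). Myh3, the embryonic myosin heavy chain of regenerating muscle, was at 33.6, 109 and 0.282 CPM with PRL and 3.44, 1.68 and 7.49 CPM with Veh. PRL replicates 1 and 2 were above all Veh libraries, while replicate 3 was at 0.282 CPM (log2 change 3.51 ± 1.15 SE, adjusted p = 0.0995). Muscle regeneration gave 0 calls of 11, and 3 rises without PRL replicate 3.

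In the bone, cartilage and tendon list 1 of 12 rose, beside 6.54% of all tested genes. The gene was Ctsk, cathepsin K, a protease of osteoclasts, fibroblasts and macrophages, at 84.5, 64.2 and 50.0 CPM with PRL and 33.2, 26.1 and 25.2 CPM with Veh (log2 change 1.23 ± 0.26 SE, adjusted p = 0.0132). This call was lost without PRL replicate 1, Veh replicate 2 or Veh replicate 3, and without PRL replicate 3 the list had 3 rises. Adipocyte (0 of 14), erythrocyte and platelet (0 of 6) and mitochondrial respiratory chain (0 of 20) lists gave no call, with medians of -0.22, 0.94 and -0.10, and the adipocyte list had 1 rise without PRL replicate 3. Slc4a1 and Alas2, erythroid genes, were highest in PRL replicate 3, at 5.07 and 23.0 CPM against 1.19 and 5.64 CPM or less in the other libraries. Among 15 nerve and Schwann cell genes 1 fell, Scn7a, a sodium channel of glia and nerve, at 38.9, 40.9 and 40.3 CPM with PRL and 63.1, 58.3 and 48.2 CPM with Veh (log2 change -0.50 ± 0.12 SE, adjusted p = 0.0253). Its call was lost without PRL replicate 1 or 2 and without Veh replicate 1 or 2. The glial factor Sox10 was at 0.48 ± 0.26 SE.

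**Figure D2:**
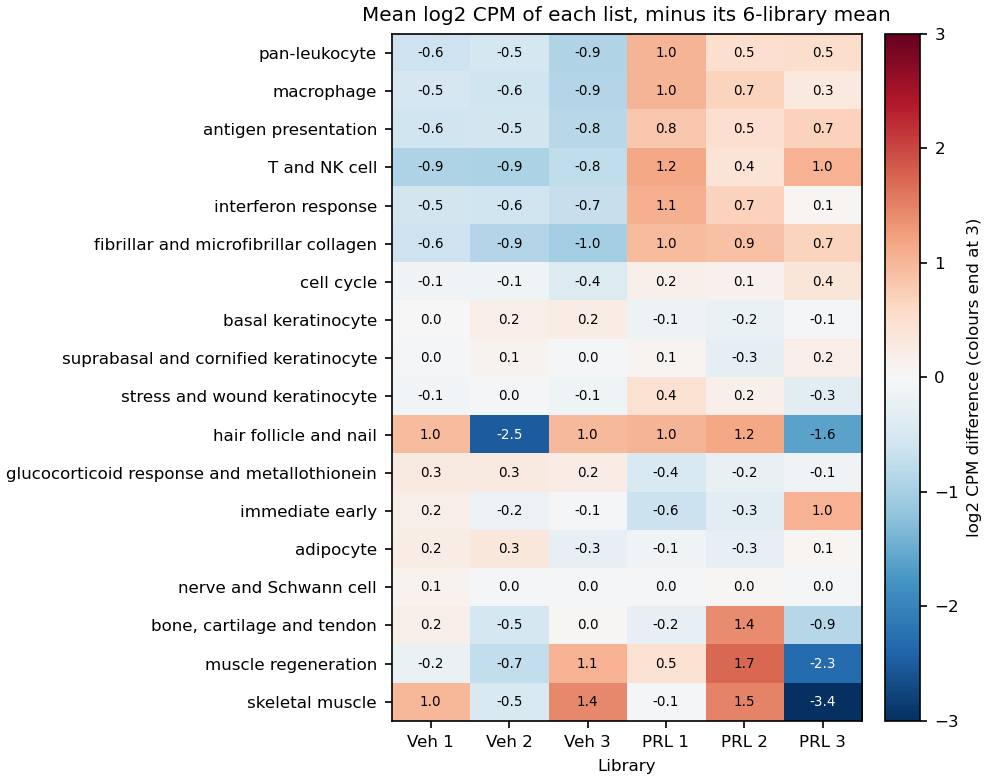
Each cell gives the mean log2 CPM of a gene list in 1 library minus the mean of that list over the 6 libraries, with the 3 Veh libraries on the left and the 3 PRL libraries on the right. Leukocyte, antigen presentation and collagen lists are above 0 in every PRL library and below 0 in every Veh library, whereas skeletal muscle falls to -3.41 in PRL replicate 3 and the bone list reaches 1.41 in PRL replicate 2.

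Of the glucocorticoid-response and metallothionein list 0 rose and 3 of 19 fell, with a median of -0.45 and 17 values below 0. Mt1, metallothionein 1, was at 89.8, 56.9 and 84.4 CPM with PRL and 123, 137 and 142 CPM with Veh (log2 change -0.80 ± 0.18 SE, adjusted p = 0.0213). Tsc22d3, the glucocorticoid-induced leucine zipper, was at 62.7, 102 and 92.4 CPM with PRL and 139, 149.6 and 172 CPM with Veh (log2 change -0.84 ± 0.19 SE, adjusted p = 0.0219). Per1, a clock gene that glucocorticoids also induce, was at 128, 185 and 259 CPM with PRL and 296, 347 and 353 CPM with Veh (log2 change -0.80 ± 0.21 SE, adjusted p = 0.035). None of the 3 overlapped between the groups, as was so for 1108 of all 1111 called genes. The count was 7 without PRL replicate 3, 1 without PRL replicate 1 and 0 without Veh replicate 2 or Veh replicate 3. Fkbp5 (0.11 ± 0.22 SE) and Zbtb16 (-0.45 ± 0.28 SE), further glucocorticoid-induced genes, did not pass.

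Per1 was the single call among 18 clock genes (median -0.22), lost without any single library except PRL replicate 3, with Arntl (BMAL1) at -0.45 ± 0.19 SE, Dbp at 0.43 ± 0.16 SE and Nr1d1 at -0.26 ± 0.10 SE, and without PRL replicate 3 there were 6 falls. The sources used here give no time of injection or tissue collection, and its part in these genes was not tested. Immediate-early genes gave 0 calls of 20, and 3 falls without PRL replicate 3. Their summed level was set apart in PRL replicate 3; Arc was at 1.27, 2.35 and 18.6 CPM with PRL and 3.26, 2.43 and 2.47 CPM with Veh. In the cholesterol and fatty acid list 1 of 18 fell (median -0.23), Fdft1, squalene synthase, at 34.4, 38.0 and 42.0 CPM with PRL and 48.7, 50.3 and 48.8 CPM with Veh (log2 change -0.37 ± 0.10 SE, adjusted p = 0.0442). Exons of Fdft1 overlap those of Ctsb on the other strand, and Ctsb rose by 0.93. The call of Fdft1 was kept without PRL replicate 3 and lost without any other single library.

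Cell-cycle genes rose in 6 of 21, and all 21 values were positive (median 0.49). Mcm2, a subunit of the replicative helicase, was at 31.4, 30.7 and 29.4 CPM with PRL and 19.3, 20.2 and 17.7 CPM with Veh (log2 change 0.68 ± 0.13 SE, adjusted p = 0.00818). Its partner Mcm5 was at 36.1, 33.2 and 36.1 CPM with PRL and 23.3, 24.3 and 19.5 CPM with Veh (log2 change 0.65 ± 0.13 SE, adjusted p = 0.00855). Mcm3, Ccna2 (cyclin A2) and Aurka (Aurora kinase A) rose by 0.52, 0.56 and 0.61, while Mki67, the proliferation marker Ki-67, was at 0.43 ± 0.15 SE (adjusted p = 0.129). The count was 3 without PRL replicate 3 or Veh replicate 2 and 2 without Veh replicate 3.

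Folding and secretion genes rose in 5 of 16 (median 0.30). Serpinh1, the collagen chaperone HSP47, was at 240.4, 189.9 and 155 CPM with PRL and 107, 101 and 83.4 CPM with Veh (log2 change 1.01 ± 0.16 SE, adjusted p = 0.00285). Pdia4, a disulfide isomerase, was at 92.3, 82.8 and 84.6 CPM with PRL and 58.5, 63.7 and 58.3 CPM with Veh (log2 change 0.52 ± 0.091 SE, adjusted p = 0.00423). Pdia6, Hsp90b1 and Sdf2l1, all proteins of the endoplasmic reticulum, rose by 0.37, 0.53 and 0.60, while Hspa5 (BiP) was at 0.28 ± 0.10 SE and Ddit3 (CHOP) at 0.32 ± 0.28 SE. The count was 3 when PRL replicate 1, Veh replicate 1 or Veh replicate 2 was left out and 2 without PRL replicate 2 or Veh replicate 3. Translation control genes gave 0 calls of 25 (median -0.01), and 1 rise and 1 fall without PRL replicate 3.

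Sensory channels and receptors rose in 5 of 20 tested genes (median 0.05). P2ry6, a receptor of extracellular UDP, was at 28.1, 16.9 and 13.6 CPM with PRL and 6.52, 5.46 and 4.75 CPM with Veh (log2 change 1.81 ± 0.28 SE, adjusted p = 0.0024). Trpv2, a cation channel also present in macrophages, was at 16.4, 13.0 and 15.1 CPM with PRL and 6.88, 7.81 and 5.03 CPM with Veh (log2 change 1.17 ± 0.20 SE, adjusted p = 0.00444). The ATP receptors P2rx4 and P2rx7 and the channel Trpm2 rose by 0.99, 0.60 and 1.75; all 5 are known to be expressed by macrophages as well. Without Veh replicate 3 the count was 3. Genes of the sensory neurons themselves were near the limit of detection. Trpv1 had 5 reads in all with PRL and 6 with Veh, Trpa1 0 and 0, Trpm8 1 and 3, Calca 9 and 25, and Scn9a 11 and 36. Tac1 at 10 and 2 and Accn3 at 12 and 10 had more reads with PRL. None of them passed the filter on low counts, and their differences were not tested. The skin channels Trpv3 and Trpv4 were at 0.01 ± 0.19 SE and 0.04 ± 0.18 SE.

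**Figure D3:**
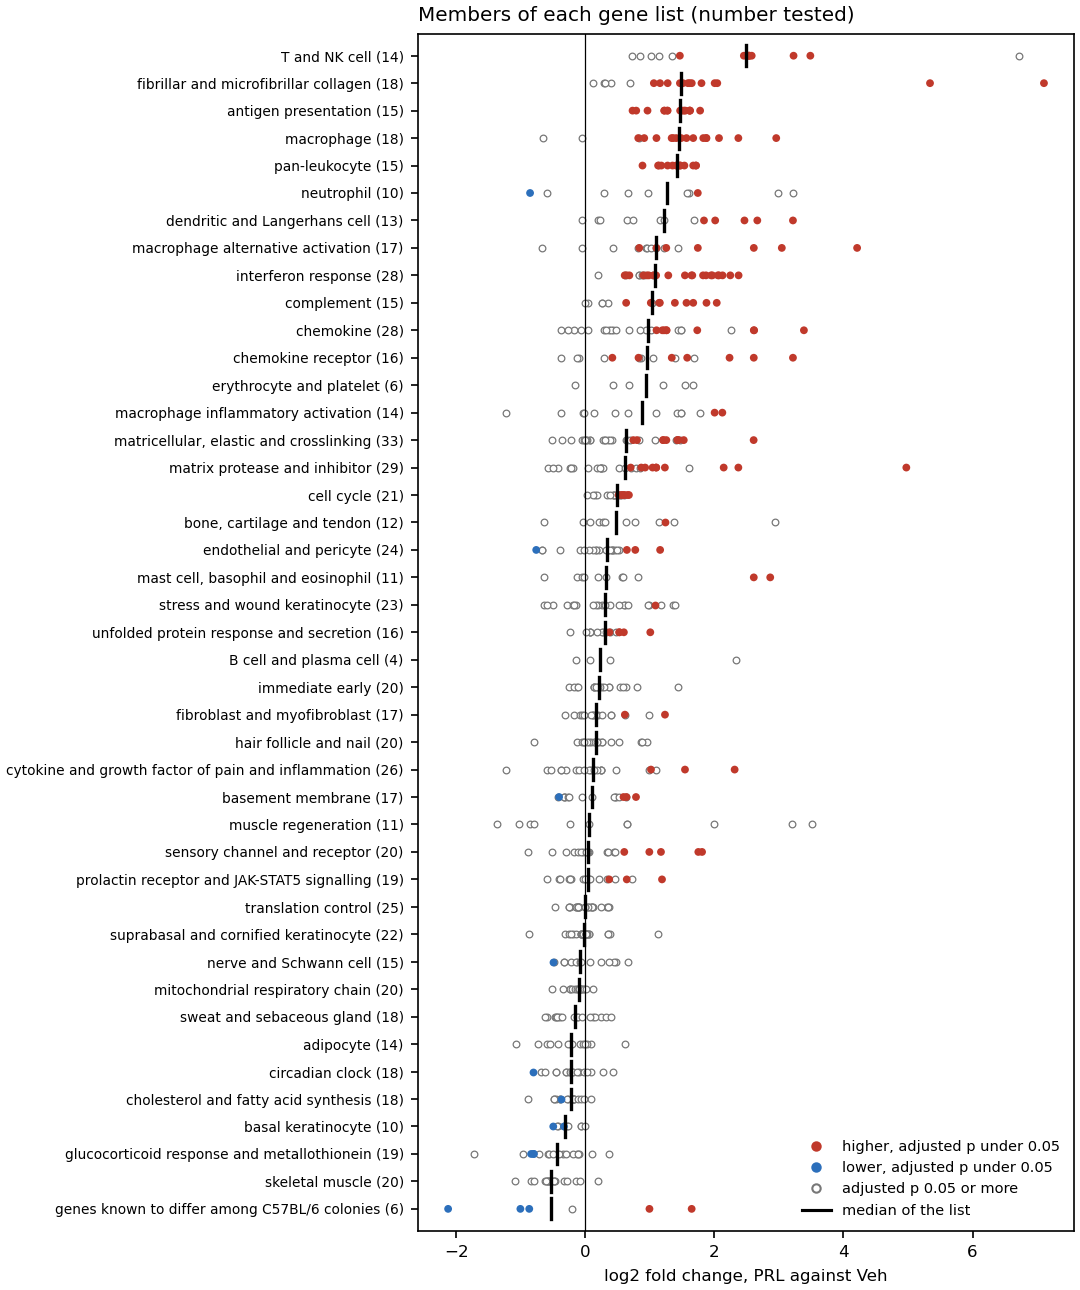
Each row is a gene list with its number of tested genes, each circle a member placed by its log2 change with PRL against Veh, filled red or blue where it passed the test, and the bar marks the list's median. Every circle is filled in the pan-leukocyte and antigen presentation lists, and no circle is filled in the suprabasal keratinocyte, skeletal muscle and translation control lists.

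Most called genes, 926 of 1111, belonged to none of the lists. Among genes whose groups did not overlap and whose mean log2 CPM reached 1, the largest rises after Col6a5 were led by Car4, a membrane-bound carbonic anhydrase, at 23.0, 13.5 and 29.6 CPM with PRL and 0.441, 0.0840 and 0.731 CPM with Veh (log2 change 5.71 ± 0.79 SE, adjusted p = 0.00122). Atp6v0d2, a proton pump subunit of osteoclasts and macrophages, was at 10.9, 10.3 and 8.17 CPM with PRL and 1.06, 0.588 and 0.457 CPM with Veh (log2 change 3.78 ± 0.49 SE, adjusted p = 0.00088). Alox15, the lipoxygenase of eosinophils and some macrophages, was at 12.1, 7.34 and 14.3 CPM with PRL and 0.529, 1.34 and 0.640 CPM with Veh (log2 change 3.72 ± 0.54 SE, adjusted p = 0.00158). All 3 were near or below 1 CPM in the Veh libraries and at least 5-fold higher in each PRL library.

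Further large rises included F7 and F10. F7, coagulation factor VII, was at 9.16, 8.81 and 5.82 CPM with PRL and 0.617, 0.504 and 0.914 CPM with Veh (log2 change 3.54 ± 0.38 SE, adjusted p = 0.000412). F10, coagulation factor X, was at 16.1, 11.7 and 7.70 CPM with PRL and 0.705, 1.43 and 2.10 CPM with Veh (log2 change 3.07 ± 0.47 SE, adjusted p = 0.0021). Both are made chiefly by the liver but also by macrophages, and both were highest in PRL replicate 1 and lowest in replicate 3. Slc13a3, a dicarboxylate transporter, was at 28.6, 13.4 and 8.35 CPM with PRL and 1.499, 1.01 and 2.01 CPM with Veh (log2 change 3.48 ± 0.50 SE, adjusted p = 0.00152). Ly9, a receptor of lymphocytes, was at 10.7, 7.25 and 5.63 CPM with PRL and 1.06, 0.923 and 0.457 CPM with Veh (log2 change 3.25 ± 0.38 SE, adjusted p = 0.00056). Retnla, the resistin-like protein of alternatively activated macrophages and eosinophils, was at 43.8, 108 and 142 CPM with PRL and 26.4, 3.78 and 5.48 CPM with Veh (log2 change 3.04 ± 0.67 SE, adjusted p = 0.0165). Veh replicate 1 alone carried 26.4 CPM of Retnla, which narrows the gap to the lowest PRL library.

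The 10 smallest p-values belonged to Ptprc, Dock2 and Itgax, given above, to the pseudogene Tmem181b-ps and Wdfy1, given with the colony genes further on, and to 5 others. Daglb, the enzyme that makes the endocannabinoid 2-arachidonoylglycerol in macrophages, was at 70.5, 79.2 and 89.9 CPM with PRL and 18.3, 14.1 and 16.4 CPM with Veh (log2 change 2.30 ± 0.18 SE, adjusted p = 0.000152). Slc38a1, a glutamine transporter, rose by 1.32 ± 0.11 SE, Myo1g, a myosin of blood cells, by 1.74 ± 0.15 SE, Ly86, a partner of an innate receptor, by 2.53 ± 0.23 SE and Itga4, an integrin chain of leukocytes, by 1.36 ± 0.12 SE. Each had no overlap between groups and kept its call in all 16 alternative settings. Exons of Daglb overlap those of Rac1 on the opposite strand, and Rac1 differed by 0.02 ± 0.087 SE.

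Falls were smaller and fewer. Tas1r2, a subunit of the sweet taste receptor, was at 0.933, 2.35 and 3.94 CPM with PRL and 8.11, 9.40 and 6.85 CPM with Veh (log2 change -1.76 ± 0.36 SE, adjusted p = 0.0106). Gsta3, a glutathione transferase, was at 3.31, 2.94 and 2.16 CPM with PRL and 9.17, 9.40 and 7.13 CPM with Veh (log2 change -1.61 ± 0.22 SE, adjusted p = 0.00112). Has1, a hyaluronan synthase, was at 2.12, 3.33 and 5.44 CPM with PRL and 10.1, 8.14 and 12.7 CPM with Veh (log2 change -1.51 ± 0.39 SE, adjusted p = 0.0352). The PRL libraries were below every Veh library in all 3, which the rule that picked these genes required. Only Gsta3 among them kept its call in all 16 alternative settings.

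Abpb, a secretoglobin, was at 2.29, 1.57 and 1.78 CPM with PRL and 4.67, 6.30 and 3.75 CPM with Veh (log2 change -1.37 ± 0.24 SE, adjusted p = 0.00444). Cebpd, the transcription factor C/EBP delta, which glucocorticoids and inflammation induce, was at 14.2, 15.1 and 23.3 CPM with PRL and 44.6, 33.6 and 37.5 CPM with Veh (log2 change -1.14 ± 0.17 SE, adjusted p = 0.00195). Snhg11, a host gene of small nucleolar RNAs, was at 4.92, 6.76 and 5.26 CPM with PRL and 13.2, 12.2 and 12.2 CPM with Veh (log2 change -1.15 ± 0.18 SE, adjusted p = 0.00253). These 3 kept their call in every alternative setting. Exons of Cebpd overlap 2310008H04Rik on the other strand, which differed by 0.22.

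Stmn2, Cadm2 and Unc79 were also among the 12 largest falls. Stmn2, a tubulin-binding protein of growing axons, was at 4.58, 4.41 and 3.003 CPM with PRL and 7.67, 7.05 and 10.7 CPM with Veh (log2 change -1.08 ± 0.22 SE, adjusted p = 0.0102). Cadm2, a synaptic adhesion molecule, was at 3.82, 5.78 and 4.22 CPM with PRL and 12.7, 8.48 and 8.87 CPM with Veh (log2 change -1.12 ± 0.23 SE, adjusted p = 0.011). Unc79, part of the NALCN sodium channel complex, was at 3.05, 1.96 and 4.04 CPM with PRL and 5.202, 7.14 and 6.85 CPM with Veh (log2 change -1.08 ± 0.29 SE, adjusted p = 0.0463). Both groups were low, and Cadm2, Stmn2 and Unc79 lost their call in 3, 2 and 9 of the 16 alternative settings. Efcab1 and Abhd12b fell by 1.36 and 1.04. Krt24, a keratin and the most abundant gene that fell, was at 1150.5, 1143 and 1473 CPM with PRL and 1877, 2049.7 and 1497 CPM with Veh (log2 change -0.53 ± 0.14 SE, adjusted p = 0.0439), with PRL replicate 3 close to Veh replicate 3.

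**Figure D4:**
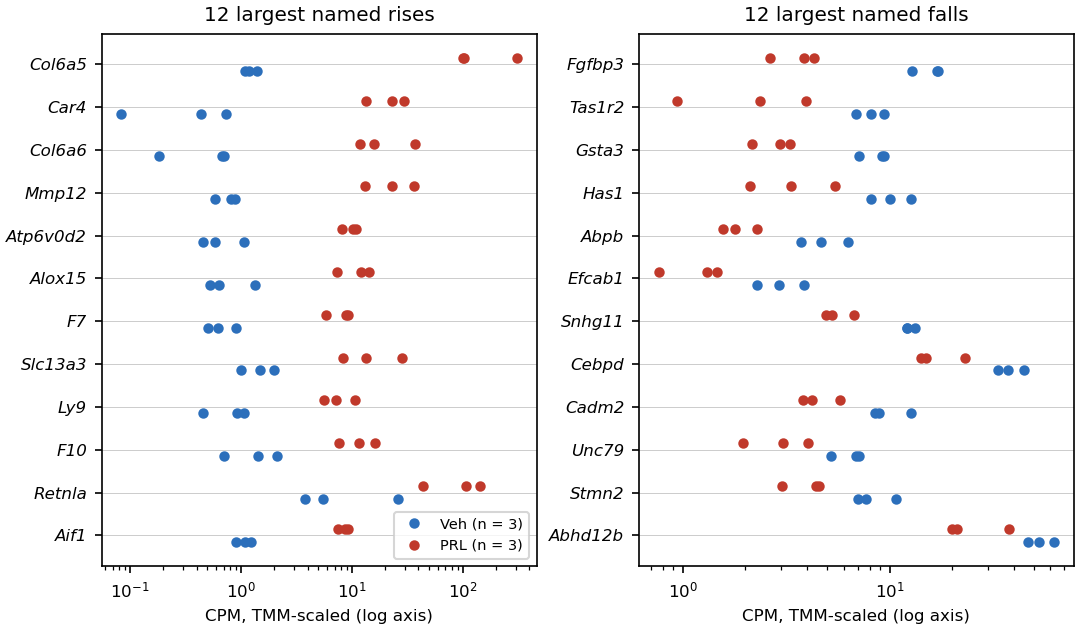
Points give the CPM of each of the 3 PRL (red) and 3 Veh (blue) libraries on a log axis for the 12 largest rises (left) and 12 largest falls (right) among called genes whose groups did not overlap and whose mean log2 CPM reached 1. Col6a5 is near 1 CPM in all Veh libraries and at 101 CPM or more with PRL, whereas the blue and red points of the falls lie closer together.

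Genes known to differ in copy number or sequence between C57BL/6 colonies also separated the groups, although the labels give the same substrain for all mice. Of 6 tested genes on that list 2 rose and 3 fell. Nnt, a mitochondrial transhydrogenase with a known deletion in C57BL/6J, was at 31.1, 38.3 and 24.6 CPM with PRL and 10.9, 8.90 and 10.1 CPM with Veh (log2 change 1.65 ± 0.24 SE, adjusted p = 0.00152). Wdfy1, an endosomal protein, was at 56.6, 56.0 and 52.1 CPM with PRL and 28.8, 27.8 and 26.0 CPM with Veh (log2 change 0.99 ± 0.089 SE, adjusted p = 0.000213). Entpd4, a nucleotide-cleaving enzyme of the Golgi, was at 53.4, 55.0 and 47.2 CPM with PRL and 96.5, 100.2 and 116 CPM with Veh (log2 change -1.01 ± 0.12 SE, adjusted p = 0.00054). In these 3 the groups were about 2- to 3-fold apart with little spread inside each group.

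Fgfbp3 and Ide lie in a segment of chromosome 19 whose copy number is known to vary among C57BL/6J mice. Fgfbp3, a carrier of fibroblast growth factors, was at 2.63, 4.31 and 3.85 CPM with PRL and 17.2, 17.0 and 12.8 CPM with Veh (log2 change -2.13 ± 0.21 SE, adjusted p = 0.000273). Ide, the insulin-degrading enzyme, was at 923, 768 and 1133 CPM with PRL and 1824, 2016 and 1316 CPM with Veh (log2 change -0.87 ± 0.18 SE, adjusted p = 0.0115). Btaf1, the next gene to Fgfbp3, fell by 0.39 (adjusted p = 0.0244), whereas Tnks2 on its other side was at -0.12 (adjusted p = 0.586). Cyfip2 was at -0.21 ± 0.14 SE and did not pass. The pseudogene Tmem181b-ps, with the second smallest p of all genes, was at 18.7, 16.5 and 16.7 CPM with PRL and 5.03, 5.12 and 6.03 CPM with Veh (log2 change 1.68 ± 0.13 SE, adjusted p = 0.000149).

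The same genes can be read in the other libraries of the series, in CPM of gene reads, with the paw first. Wdfy1 was at 53.8 to 59.7 with PRL and 26.7 to 29.8 with Veh in these females, at 52.5 to 61.5 and 23.7 to 27.8 in males, and at 23.5 to 27.5 in PRL_Sh. Entpd4 was at 48.8 to 56.3 with PRL and 99.9 to 119 with Veh in females, at 45.8 to 52.6 and 75.3 to 99.2 in males, and at 119 to 145 in PRL_Sh. For these 2 genes the PRL_Sh libraries, whose treatment label is also prolactin, lay with or beyond the Veh libraries. The other 3 called genes gave another order. Ide was at 688 to 1147 in PRL_Sh, which overlapped the female PRL libraries at 782 to 1171 and below the Veh libraries at 1348 to 2104. Nnt was at 13.4 to 28.0 in PRL_Sh, above the Veh libraries at 9.29 to 11.3 and reaching into the PRL range of 25.4 to 39.0. Fgfbp3 was at 4.77, 4.89 and 13.4 in PRL_Sh, with 2 libraries close to the PRL range of 2.77 to 4.39 and 1 inside the Veh range of 13.1 to 17.8. Across the 5 genes PRL_Sh did not lie with the same group throughout, and its kit also differed. In rRNA-depleted dorsal root ganglia Wdfy1 was at 83.8 to 88.4 with PRL and 29.7 to 33.8 with Veh in females. In males it was at 80.7 to 85.4 and 27.6 to 34.9. Entpd4, Nnt, Ide and Fgfbp3 also separated PRL from Veh there in both sexes, each in the direction seen in the paw. Cyfip2 overlapped between the groups in ganglia of both sexes.

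One locus was all or none. LOC100642166, named after its values were seen, had 0 reads with PRL and 73 with Veh in these libraries, at least 23.2-fold lower against the floor of 3 counts (adjusted p = 0.000596). It had 0 reads in all 12 rRNA-depleted PRL libraries of both tissues and sexes and 15 to 35 reads in each of the 18 other libraries, PRL_Sh included. Whether mice of the PRL and Veh groups came from different colonies is not given in the sources used here. If they did, colony and prolactin cannot be told apart in this comparison, and the part of colony in the other differences was not tested.

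**Figure D5:**
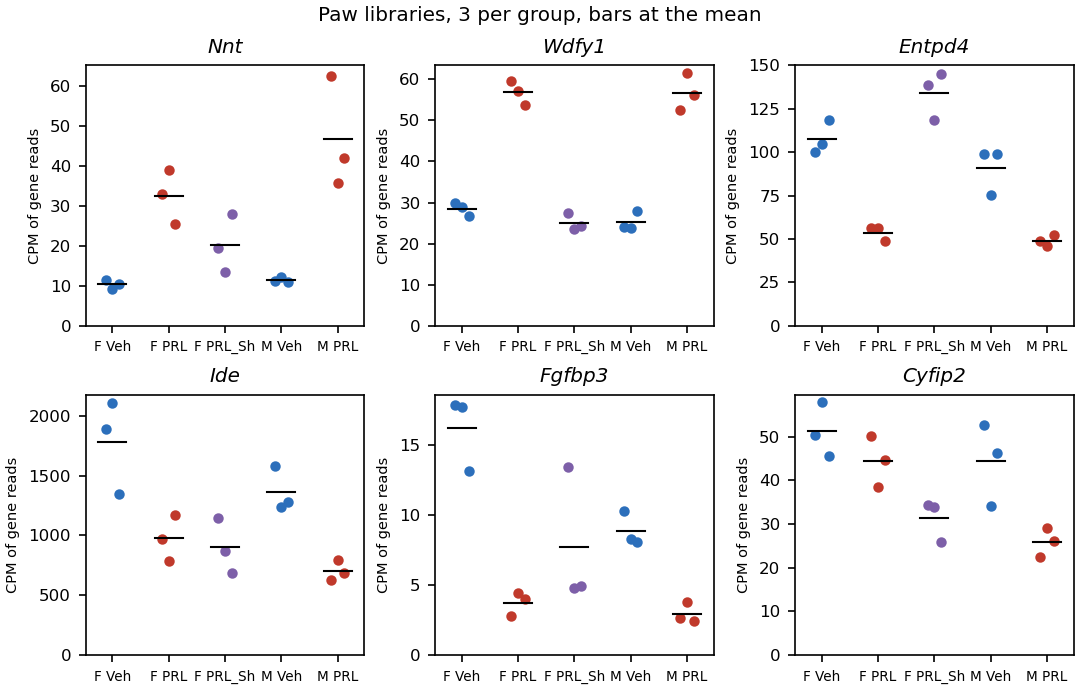
Points are single paw libraries and bars the mean of 3 for 6 genes known to differ among C57BL/6 colonies, in CPM of gene reads from 0, by group (F female, M male). Nnt, Wdfy1, Entpd4, Ide and Fgfbp3 separate PRL from Veh in both sexes. The PRL_Sh libraries lie with or beyond Veh for Wdfy1 (23.5 to 27.5) and Entpd4 (119 to 145) and with female PRL for Ide (688 to 1147).

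The male paw was fitted beside the female paw with separate libraries. In males 3301 genes passed (22.4%), 1812 higher and 1489 lower. Male Veh replicate 2 stood apart, with 13.6% of its reads in genes against 25.0% and 25.4% in Male Veh replicates 1 and 3. Its Lars2 was at 12970 CPM of gene reads, against 34.7 and 244. With that library left out of the shared fit, females had 902 rises and 146 falls. Of the 1111 genes called in females, 887 were called in the same direction in males, which is 79.8% of the female and 26.9% of the male calls, and 2 were called in opposite directions. The same sign was seen for 1070 of the 1111. All 15 leukocyte and all 15 antigen presentation genes that rose in females also rose in males, where Ptprc, Col6a5, Mmp12 and Fgfbp3 differed by 1.72, 8.68, 4.47 and -1.56.

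A test of the difference between the sexes' responses called 1 gene (0.00679%), Il1rl1, the receptor of interleukin-33 on mast cells, regulatory T cells and innate lymphoid cells. It was at 28.2, 29.4 and 23.7 CPM with PRL and 21.4, 25.9 and 22.5 CPM with Veh in females, a log2 change of 0.22 ± 0.11 SE that did not pass (adjusted p = 0.288). In males the change was 1.56, and the female change was lower by 1.34 ± 0.16 SE (edgeR adjusted p = 0.0347). This call was kept without female PRL replicate 1 or 3 and lost without any other single paw library of either sex. At an unadjusted p under 0.05 the difference was found for 1924 genes, and DESeq2 called 158. Ccl11, among the 5 genes with the smallest p for this difference, rose in both sexes (1.26 in females and 2.48 in males) and its difference of -1.22 ± 0.20 SE did not pass. Clec2d (-0.04 and 1.20), Tcta (-0.35 and 0.48) and Phlda2 (0.84 and -2.34) completed that set without a call.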

How the data were processed

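Total RNA from 30 tissue samples was sequenced as 50-nt single reads, after rRNA depletion in the 6 libraries compared here. The deposited values are raw read counts per gene, made by the authors with TopHat2 and HTSeq on mm9, per the submitters' processing notes. The sources used here do not give tool versions, the counting mode or whether counting used strand. The 5 summary lines of each file were dropped.

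The 12 rRNA-depleted paw libraries of both sexes were fitted together in edgeR 4.0.16 (R 4.3.3) with TMM scaling and filterByExpr at its defaults, keeping 14721 of 22609 genes. PRL was tested against Veh within females, within males and as their difference by the quasi-likelihood F test with Benjamini-Hochberg adjustment at 0.05. SE is the log2 change divided by the square root of F. The script was tested on simulated data. DESeq2 1.42.0, other scalings, filters, covariates and libraries left out were tried as alternatives.

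Named genes were the 12 largest rises and falls (mean log2 CPM of at least 1, no overlap), the 10 smallest p, the 10 most abundant calls, up to 5 called members of each list, Prlr, and the 5 smallest p of the difference. Other members are named as examples chosen after their values were seen. Some genes that these rules name are not reported here. Members and lists were chosen with earlier results of these data known.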

Additional observations from a re-analysis of the deposited data

Results flagged for a closer look

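The response of Il1rl1, the interleukin-33 receptor, differed between the sexes by a test of the difference itself. The female log2 change was 0.22 and the male one 1.56, so that the female change was lower, with a difference of -1.34 ± 0.16 SE (edgeR quasi-likelihood test, adjusted p = 0.0347). It was the only gene of 14721 past the threshold for that difference in edgeR, while DESeq2 called 158, and in edgeR an unadjusted p under 0.05 was found for 1924. The call of Il1rl1 was lost with upper-quartile scaling (edgeR adjusted p = 0.0515) and with the replicate block (edgeR adjusted p = 0.528). It was kept without female PRL replicate 1 or 3 and lost without any other single paw library of either sex.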

How the results depend on the processing

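Of 140 named genes that passed the test, 89 kept their call in all 16 alternative settings, and 45 of 61 that did not pass stayed on that side in all of them. Rises made up 86.7% of calls, and 69.3% with muscle as a covariate, 74.9% without PRL replicate 3 and 94.5% with the replicate block; the cause was not tested. DESeq2 called 289 falls. The fit to the 6 libraries alone gave 555 rises and 42 falls, 597 in all, and muscle as a covariate gave 500 falls. Leaving out each library in turn gave 514 to 1127 rises, 35 to 378 falls and 579 to 1505 in all. For Prlr the log2 change was -0.60 with muscle as a covariate and -0.72 to -0.21 with a library left out. The difference between the sexes was called for 158 genes by DESeq2, 0 with upper-quartile scaling, 0 without Male Veh replicate 2, 9 with muscle as a covariate and 0 to 6 with a library left out.

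The replicate number as a block gave 531 rises and 31 falls, 562 in all, and 0 genes for the difference between the sexes. Deviations of same-numbered PRL and Veh libraries correlated at 0.11, -0.56 and -0.48, so the numbers were not taken as pairs, and not every library correlated best with its own number.

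The sign changed for 10 named genes, none of them called. Stat5a was at 0.00045 with upper-quartile scaling, and with muscle as a covariate Stat5b was at 0.14, Pim1 at -0.15 and Shc1 at -0.032. With a library left out the log2 change ran from -0.20 to 0.14 for Stat5a, -0.18 to 0.070 for Stat5b, -0.13 to 0.22 for Pim1, -0.35 to 0.41 for Elf5, -0.024 to 0.13 for Shc1 and -0.019 to 0.046 for Ptpn11. It ran from -0.61 to 3.58 for Acan, -0.24 to 2.55 for Alas2, -0.60 to 1.94 for Arc and -0.15 to 0.78 for Jun.

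Precision is limited by 3 libraries a group of 10024692 to 11414706 gene reads each.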

Other observations

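Tdo2, a tryptophan-degrading enzyme, had 23 reads with PRL and 0 with Veh, at least 8.03-fold higher against a floor of 3 counts over the Veh group (edgeR adjusted p = 0.047). With Ear11, Cd22 and LOC100642166 it made up the 4 called genes that had no read in 1 of the groups. Col10a1, the collagen of growth cartilage, had 959 reads with PRL and 2 with Veh. It did not pass the filter on low counts, so its reads did not reach the filter's level in all 3 PRL libraries. PRL replicate 2 was the library that held cartilage RNA, and the difference in Col10a1 was not tested.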
